A study of Mus musculus with 10 samples.

Results

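Open chromatin was examined around 9 early response genes, Myc, Egr1, Egr2, Egr3, Ier2, Ier3, Klf4, Klf6 and Klf10, in MC3T3-E1, an osteoblast cell line from mouse. A region was counted where a deposited peak list named one of these genes as the nearest gene. The 4 lists together held 260 such rows, which overlap linked into 82 regions of 35534 in all. Of these, 48 were in all 4 lists. Counts could be compared in 44 of the 48, against 14416 windows in the whole series, since 1 region (Klf4 -451668) did not pass a filter on low counts and 3 (Klf10 770, Klf10 -83715 and Klf4 -581535) had windows that did not all overlap by 63 of their 125 bp. A nearest gene is not shown to be the gene that a region acts on.

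These genes belong to the immediate early response, the set of genes that cells switch on within minutes to hours of a stimulus without first making new protein. Myc encodes a transcription factor of cell growth that binds DNA with its partner Max. The Egr genes encode zinc finger factors that serum and growth factors induce through SRF and its ELK partners at CArG boxes. Ier2 and Ier3 encode small early response proteins, and Ier3 is known as an NF-kB target that modulates cell death. The Klf genes encode zinc finger factors that bind GC-rich DNA, and Klf10 was first described in osteoblasts as a gene induced early by TGF-beta.

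ATAC-seq, in which a transposase inserts sequencing adapters into accessible DNA, was performed on 2 libraries each of cells given TNFa, cells given BMP4, cells given TNFa and BMP4 (TNFa+BMP4), and untreated cells (none), all listed as batch 1. A further 2 libraries of sonicated DNA from these cells were the background. By the treatment protocol all cells, grown in 10% serum, stood in 2.5% serum for 30 min. TNFa (10 ng/ml) was then added or not for 30 min and BMP4 (10 ng/ml) or not for 3 h. The sample labels instead give 3 h for TNFa, so its duration is uncertain. The titles of the TNFa libraries also carry p65, for a reason that is not given, and the genotype field only repeats the treatment. Whether the libraries of a group came from separate cultures is not stated, so p-values measure the spread between these libraries only, which may be technical.

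Promoter sequences in the RefSeq table (GRCm38.p6, the build also called mm10) matched 4 of the 9 genes, and the 250 bases upstream of the start are shown because each contains or overlaps a tested window described below. Letters run 5′ to 3′ on the gene's strand. Capitals mark matches, on either strand, to the kB motif, the CArG box, the AP-1 site TGANTCA, the CRE TGACGTCA, the EGR site GCGNGGGCG, the E-box CACGTG, the BMP-responsive motif GGCGCC, the TATA box TATAAA and the CCAAT box CCAAT. The regions are chr17:35821463-35821712 (+ strand) for Ier3, chr10:67537316-67537565 (+ strand) for Egr2, chr4:55532476-55532725 (- strand) for Klf4 and chr13:5861239-5861488 (+ strand) for Klf6.
Ier3: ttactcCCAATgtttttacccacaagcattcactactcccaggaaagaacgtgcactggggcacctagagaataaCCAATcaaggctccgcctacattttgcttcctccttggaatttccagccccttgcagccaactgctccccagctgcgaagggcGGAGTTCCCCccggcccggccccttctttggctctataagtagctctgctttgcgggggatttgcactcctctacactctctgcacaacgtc
Egr2: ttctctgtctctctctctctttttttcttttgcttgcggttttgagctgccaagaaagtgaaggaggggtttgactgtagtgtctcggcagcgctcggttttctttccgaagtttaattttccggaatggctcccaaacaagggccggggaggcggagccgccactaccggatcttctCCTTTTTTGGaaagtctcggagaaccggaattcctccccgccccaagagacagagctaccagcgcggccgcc
Klf4: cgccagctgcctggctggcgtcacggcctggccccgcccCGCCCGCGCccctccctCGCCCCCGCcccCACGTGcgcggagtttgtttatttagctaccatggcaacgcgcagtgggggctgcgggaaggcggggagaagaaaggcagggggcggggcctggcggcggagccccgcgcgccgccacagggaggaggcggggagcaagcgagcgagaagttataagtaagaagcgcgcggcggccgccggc
Klf6: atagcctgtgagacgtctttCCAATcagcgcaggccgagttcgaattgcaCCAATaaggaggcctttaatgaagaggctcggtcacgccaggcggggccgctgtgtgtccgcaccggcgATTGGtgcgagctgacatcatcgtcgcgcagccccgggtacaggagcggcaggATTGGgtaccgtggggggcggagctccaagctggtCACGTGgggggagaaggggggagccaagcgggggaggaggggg
The Ier3 promoter held a kB motif whose first base lies 92 bases before the start, a motif present in 3.9% of the 32851 promoters of the table, and which overlaps a GC box. The Egr2 sequence held a CArG box 72 bases before the start of that RefSeq transcript, against 1.47% of promoters. That start lies upstream of the start the authors used, so the window at -387 bp falls within the printed bases. Klf4 held EGR sites at 211 and 194 bases (4.7% of promoters), which overlap GC boxes, and an E-box at 182 bases (6.02%). Klf6 held an E-box at 43 bases and 4 CCAAT boxes, a motif in 33.8% of promoters. GC boxes (GGGCGG), left in lower case where they overlap no other match, were in all 4 sequences and in 32.7% of promoters. None of the 4 held an AP-1 site (6.75% of promoters), a CRE (1.55%), the BMP-responsive motif (9.59%) or the TATA box letters (12.4%). A match describes the letters only and is not evidence of binding.

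Between the lists, 70 member rows came from the TNFa peaks, 63 from the BMP4 peaks, 62 from the TNFa+BMP4 peaks and 65 from the untreated peaks. Of the 82 regions, 48 (58.5%) were in all 4 lists, against 42.5% of all regions. Within 1000 bp of a start lay 15 regions, 12 of them in all 4 lists, and 38 lay more than 50000 bp away, 19 of them in all 4 lists. Klf4 had the most regions, 20, reaching to -581617 bp, followed by Klf6 with 17, Ier2 with 10 and Klf10 with 9. Egr3 had 7, Egr1 had 6, Ier3 had 5, and Myc and Egr2 had 4 each. In the authors' deposited table, the log2 fold of a member row over the sonicated background had a median of 3.65 for TNFa (3.47 over all rows of that list), 4.10 for BMP4 (3.79), 3.60 for TNFa+BMP4 (3.46) and 3.81 for untreated cells (3.54). The Ier2 regions at 84994, 47124 and 26566 bp lie in introns of Cacna1a, a calcium channel gene, and the Egr3 region at -20169 bp lies in an intron of Pebp4, by the transcripts that the files name.

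**Figure D1:**
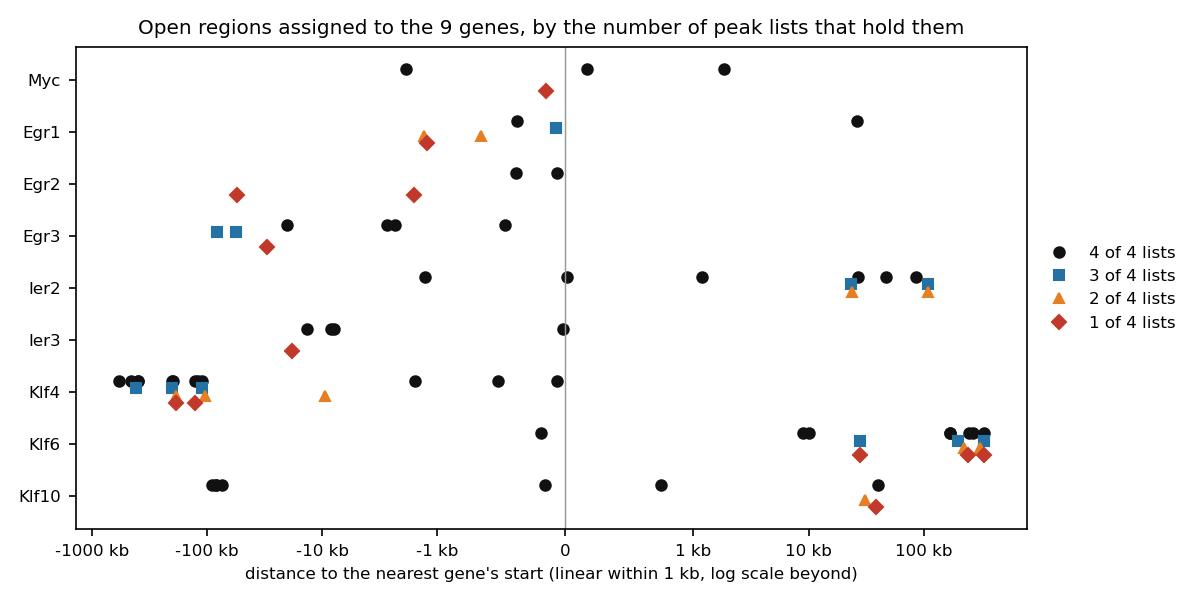
Regions assigned to the 9 genes (rows), by their distance to the gene's start (x axis, linear within 1 kb and logarithmic beyond) and by the number of peak lists that hold them (colour and symbol). Of 82 regions, 48 were in all 4 lists, and those of Klf4 reach far upstream and those of Klf6 far downstream.

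Accessibility is given as CPM, the usual scaling of a window's tag count to the library, here relative to the tags that fell in the tested windows and with library sizes adjusted by the TMM method. These tags numbered 591988 in TNFa replicate 1, the lowest, to 1574458 in BMP4 replicate 2, the highest, and all mapped tags ranged from 16.5 M (TNFa replicate 1) to 30.1 M (untreated replicate 1). On the first principal component over all tested windows (63.3% of the variance), BMP4 replicate 2 (95.9) and untreated replicate 2 (94.3) lay far from their partners (-71.6 and -15.4), and their values correlated at 0.953 across windows, more closely than either did with its own partner (0.393 and 0.590). Results are therefore also given without these 2 libraries. Both TNFa+BMP4 libraries lay on the other side of this component, at -74.0 for replicate 1 and -12.6 for replicate 2. The TNFa libraries were also spread on this component, at -58.5 for replicate 1 and 41.9 for replicate 2, and both were kept. Values without the 2 libraries can therefore still follow this component and are not cleaned estimates. Of 10 osteoblast markers, 4 or 5 had a peak within 1000 bp of the start in each list, among them Runx2, Col1a1 and Col1a2 in all 4 lists. Sp7, Alpl, Spp1, Ibsp and Postn had no such peak in any list. Of 5 adipocyte markers Cebpa had such a peak in all 4 lists, of 5 haematopoietic markers Cd14 had one in the BMP4 and TNFa+BMP4 lists, and of the 7 muscle and endothelial markers none had one.

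No window passed an adjusted p of 0.05 by limma (Benjamini-Hochberg over 14416 windows) in any of the 8 comparisons, so 0% of all windows and 0 of the 44 member windows were called. The lowest adjusted p of a member window was 0.853. Fold changes below are therefore sizes with their standard errors, not called changes. In a bulk library, more cells with an open site and a more open site per cell cannot be told apart.

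At Egr1 and Egr2, the windows at -349 and -387 bp were higher in every library with TNFa, alone or with BMP4, than in both BMP4 libraries, but neither difference passed the test. The window at -349 bp of Egr1 (chr18:34860796-34860920 in the TNFa and untreated lists, annotated as promoter) held 333 and 287 CPM with TNFa, 156 and 89.6 CPM with BMP4, 223 and 364 CPM with TNFa+BMP4, and 297 and 93.9 CPM in untreated cells. All TNFa+BMP4 libraries exceeded all BMP4 libraries, while untreated replicate 1 lay between the TNFa libraries and untreated replicate 2 near BMP4 replicate 2. The contrast of TNFa and TNFa+BMP4 against BMP4 and none, called the TNFa contrast below, was 1.07 ± 0.45 (log2 fold change ± SE, 4 libraries each, limma adjusted p = 0.853). Against BMP4 alone, TNFa+BMP4 was 1.25 ± 0.64 (adjusted p = 0.989). The windows of the BMP4 and TNFa+BMP4 lists lie 54 bp from those of the other lists.

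Egr2, which also acts in osteoblast and nerve development, showed the same order at -387 bp (chr10:67537420-67537544), a window inside the sequence printed above. It held 254 and 166 CPM with TNFa, 128 and 47.0 CPM with BMP4, 171 and 209.5 CPM with TNFa+BMP4, and 202 and 44 CPM in untreated cells, with a TNFa contrast of 1.18 ± 0.56. Against BMP4 alone, TNFa+BMP4 differed by 1.26 ± 0.79 (adjusted p = 0.989). The second Egr2 window, at -86 bp, had 161 ± 73.6 CPM with TNFa, 80.5 ± 70.7 with BMP4, 129 ± 28.8 with TNFa+BMP4 and 101 ± 58.7 in untreated cells (mean ± SD, n = 2 each). In both windows the untreated and BMP4 libraries overlapped.

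The Egr1 and Egr2 differences were larger among the libraries numbered 2. Among libraries numbered 1 the TNFa contrast was 0.34 at Egr1 -349, 0.37 at Egr2 -387 and 0.38 at Egr2 -86, and among those numbered 2 it was 1.79, 1.99 and 1.31. Without untreated replicate 2 and BMP4 replicate 2 it was 0.46 ± 0.42 at Egr1 -349, 0.29 ± 0.44 at Egr2 -387 and 0.03 ± 0.49 at Egr2 -86. Without them TNFa against none was 0.05 at Egr1 -349 and 0.02 at Egr2 -387, against 0.88 ± 0.64 and 1.10 ± 0.79 with all libraries.

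Egr3, a further zinc finger factor of this family, was less open at its promoter. The window at -469 bp held 18.9 and 15.5 CPM with TNFa, 18.3 and 12.7 CPM with BMP4, 16.9 and 19.3 CPM with TNFa+BMP4, and 11.7 and 11 CPM in untreated cells. Every treated library lay above both untreated ones, at 11 to 20 tags per window. Against none the log2 fold changes were 0.52 ± 0.47 for TNFa, 0.37 ± 0.47 for BMP4 and 0.59 ± 0.47 for TNFa+BMP4. The windows at -2353 and -2715 bp gave 0.60 and 0.96 for TNFa+BMP4 against none, and 0.53 each without untreated replicate 2 and BMP4 replicate 2. All 8 tested windows of the 3 Egr genes had a TNFa contrast above 0, against 49.9% of all tested windows. It was 0.26 to 1.18, and 0.10 to 1.03 with libraries scaled by total tags. Of the 8, 7 had it above 0 in the libraries of each number, against 29.1% of all tested windows. Some of these windows are neighbours at the same gene and all share the same libraries, so they are not independent. Without untreated replicate 2 and BMP4 replicate 2 all 8 were also above 0, but Egr3 -2715 was then 0.0068 ± 0.52, against 0.75 with all libraries, and Egr3 -2353 was 0.07 ± 0.48, against 0.35. The window without it in both was Egr3 -20169, at 0.97 and -0.44, where a recovered count also deviated from a whole number by 0.41.

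**Figure D2:**
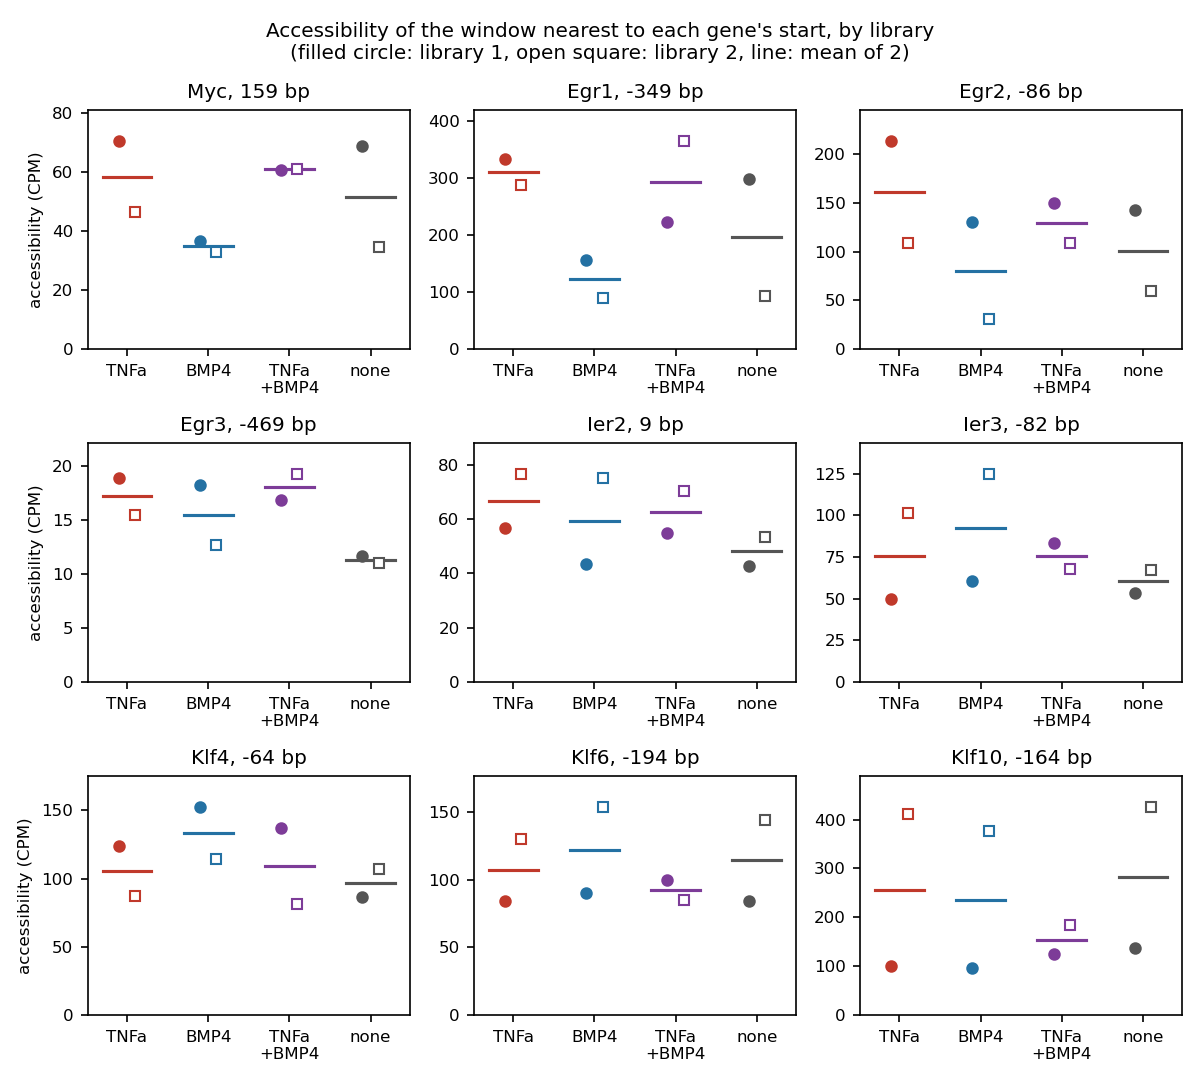
Accessibility (CPM) of the tested window nearest to the start of each gene, by group and library, with the mean of 2 as a line. At Egr1 and Egr2 the second BMP4 and untreated libraries are low, at Egr3 both untreated libraries (11.7 and 11 CPM) lie below the rest, and at Klf10 the libraries numbered 2 are the higher ones in each group.

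The other tested Egr1 window, at 26319 bp, had 36.1 ± 12.1 CPM with TNFa, 27.3 ± 3.51 with BMP4, 40.1 ± 0.91 with TNFa+BMP4 and 26.5 ± 0.823 in untreated cells. Egr1 also had windows in some lists only. The window at -656 bp was in the TNFa list (103 and 217 tags) and the TNFa+BMP4 list (68 and 245 tags), and the window at -102 to -74 bp in all lists but the untreated one (105 and 207 tags with TNFa, 104 and 170 with BMP4, 96 and 146 with TNFa+BMP4). With windows within 500 bp joined, the promoter of Egr1 was in all 4 lists, which hold different windows within it. A list without a window gives no count for it, so no fold change was computed.

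Myc had 3 tested windows, in which the groups stood in different orders. In the window at 159 bp, in the first exon, TNFa gave 70.4 and 46.6 CPM, BMP4 36.6 and 33.1 CPM, TNFa+BMP4 60.6 and 61.2 CPM, and untreated cells 68.7 and 34.5 CPM. The BMP4 values lay below the TNFa+BMP4 values and overlapped the untreated ones. The TNFa contrast there was 0.50 ± 0.38, and 0.23 ± 0.46 without the 2 libraries that lie apart. The BMP4 average effect, which is the mean of BMP4 and TNFa+BMP4 minus that of TNFa and none, was -0.19 ± 0.38. In the window at 1862 bp, in an intron, the BMP4 libraries (82.4 and 84.6 CPM) exceeded both TNFa libraries (44.6 and 55.0 CPM), both TNFa+BMP4 libraries (67.7 and 47.6 CPM) and both untreated ones (46.9 and 76.3 CPM). The upstream window at -1862 bp had 10.3 and 16.7 CPM with TNFa, 10.3 and 15.3 with BMP4, 19.7 and 20.4 with TNFa+BMP4, and 26 and 19.1 in untreated cells. Both single treatments lay below both untreated libraries and the combined one overlapped them, which gave the member interaction term that ranked first by p (1.28 ± 0.70). That term did not pass the test and rests on only 6 to 31 tags per library. A Myc window at -150 bp was in the TNFa list only, with 53 and 59 tags.

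The promoter of Ier2, at 9 bp from the start, had 56.6 and 76.5 CPM with TNFa, 43.5 and 75.0 CPM with BMP4, 55.0 and 70.2 CPM with TNFa+BMP4, and 42.7 and 53.5 CPM in untreated cells. Each library with TNFa lay above both untreated ones, with 0.44 ± 0.53 for TNFa and 0.36 ± 0.53 for TNFa+BMP4 against none. The other windows of this gene did not all share that order. The intronic window at 84994 bp went the other way, with 15.5 and 39.6 CPM in TNFa+BMP4 libraries against 50.3 and 97.5 CPM in untreated ones (-1.42 ± 0.87). Without the 2 libraries that lie apart this was -0.95 ± 0.82, and the TNFa contrast moved from -0.94 ± 0.62 to -0.14 ± 0.58. The second library exceeded the first there in every group, from 1.94-fold in untreated cells to 5.05-fold with BMP4. At 26566 bp the BMP4 libraries (33.2 and 38.8 CPM) lay below the TNFa (51.5 and 59.7), TNFa+BMP4 (45.1 and 74.8) and untreated ones (77.1 and 46.9), and the interaction term was 0.78 ± 0.76. At 47124 bp, where BMP4 gave 22.9 and 33.1 CPM against 44.4 and 39.6 CPM in untreated cells, the BMP4 average effect was -0.46 ± 0.38. In the window of the 3' UTR, at 1187 bp, TNFa+BMP4 gave 72.5 ± 19.2 CPM against 43.4 ± 16.8 CPM in untreated cells. Windows at 107992 and 23582 bp were in the TNFa and TNFa+BMP4 lists only, at 24 to 45 tags per library. With windows within 500 bp joined, the window at 107992 bp fell into a region that the BMP4 list also held. The window at 23582 bp fell into one that the untreated list also held.

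The promoter window of Ier3, whose promoter holds the kB motif shown above, lies at -82 bp. It had 49.8 and 102 CPM with TNFa, 60.6 and 125 CPM with BMP4, 83.2 and 68.0 CPM with TNFa+BMP4, and 53.6 and 67.5 CPM in untreated cells, with a TNFa contrast of 0.02 ± 0.42, and 0.35 ± 0.50 without the 2 libraries that lie apart. The TNFa and untreated values overlapped, while both TNFa+BMP4 libraries lay above both untreated ones. The untreated window lies 60 bp upstream of the others, so these counts cover partly different bases. The kB motif lies inside the untreated window, while the windows of the 3 treated lists reach only its last bases. The window at -8382 bp of Ier3, the most open of the 44 by its mean over the groups, had 409 ± 109.6 CPM with TNFa, 403 ± 129.7 with BMP4, 475 ± 37.7 with TNFa+BMP4 and 391 ± 92.1 in untreated cells. At -7843 bp the second BMP4 and untreated libraries were low (92.8 and 105 CPM), while TNFa gave 232 and 228 CPM, BMP4 replicate 1 319 CPM, TNFa+BMP4 338 and 272 CPM, and untreated replicate 1 278 CPM. The TNFa contrast of 0.61 ± 0.49 was -0.17 ± 0.40 without those second libraries. At -13414 bp all treated libraries (63.3 to 107 CPM) were below both untreated ones (123 and 115 CPM), with -0.69 ± 0.51 for TNFa, -0.34 ± 0.51 for BMP4 and -0.51 ± 0.51 for TNFa+BMP4.

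Klf10 held the member windows with the smallest p for TNFa and for TNFa+BMP4 against untreated cells, both far from its start. Values at both sites lay above untreated cells with each treatment that included TNFa, but did not pass the test. At 40205 bp downstream (chr15:38259633-38259757) the values were 44.6 and 38.2 CPM with TNFa, 28.6 and 28.0 CPM with BMP4, 40.9 and 51.0 CPM with TNFa+BMP4, and 17.6 and 21.3 CPM in untreated cells. The groups did not overlap except TNFa with TNFa+BMP4, and tags numbered 21 to 45 per library. Log2 fold changes against none were 1.02 ± 0.47 for TNFa, 0.50 ± 0.47 for BMP4 and 1.16 ± 0.47 for TNFa+BMP4 (limma adjusted p = 0.897). The TNFa contrast, 0.84 ± 0.33, was 0.87 among libraries numbered 1 and 0.81 among those numbered 2, and 0.89 ± 0.45 without untreated replicate 2 and BMP4 replicate 2.

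At -84139 bp (chr15:38384788-38384912) Klf10 had 311 and 188 CPM with TNFa, 243 and 128 CPM with BMP4, 249.6 and 205 CPM with TNFa+BMP4, and 129 and 67.5 CPM in untreated cells. The libraries with TNFa lay above both untreated ones, and BMP4 replicate 2 lay between the untreated ones. TNFa against none was 1.35 ± 0.57, TNFa+BMP4 against none 1.26 ± 0.57 and BMP4 against none 0.90 ± 0.57. Without the 2 libraries that lie apart, TNFa against none was 0.89 and TNFa+BMP4 against none 0.80. The interaction term was -0.99 ± 0.80, and the matched windows of the lists lie up to 53 bp apart. The promoter window of Klf10, at -164 bp, was instead split by library number, with 101 and 412 CPM with TNFa, 96.1 and 376 CPM with BMP4, 124 and 185 CPM with TNFa+BMP4, and 138 and 425 CPM in untreated cells. The second library exceeded the first 4.07-fold with TNFa, 3.91-fold with BMP4, 1.49-fold with TNFa+BMP4 and 3.08-fold in untreated cells, and the groups overlapped. At -74296 bp the same held, with 41.2 and 248 CPM with TNFa, 37.8 and 326 CPM with BMP4, 33.8 and 122 CPM with TNFa+BMP4, and 65.3 and 324 CPM in untreated cells, although a recovered count there deviated from a whole number by 0.425. In contrast, the libraries agreed closely at -90966 bp, where the BMP4 values (34.3 and 38.1 CPM) lay below the TNFa (48.1 and 52.6 CPM), TNFa+BMP4 (43.7 and 47.6 CPM) and untreated ones (46.1 and 50.6 CPM).

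**Figure D3:**
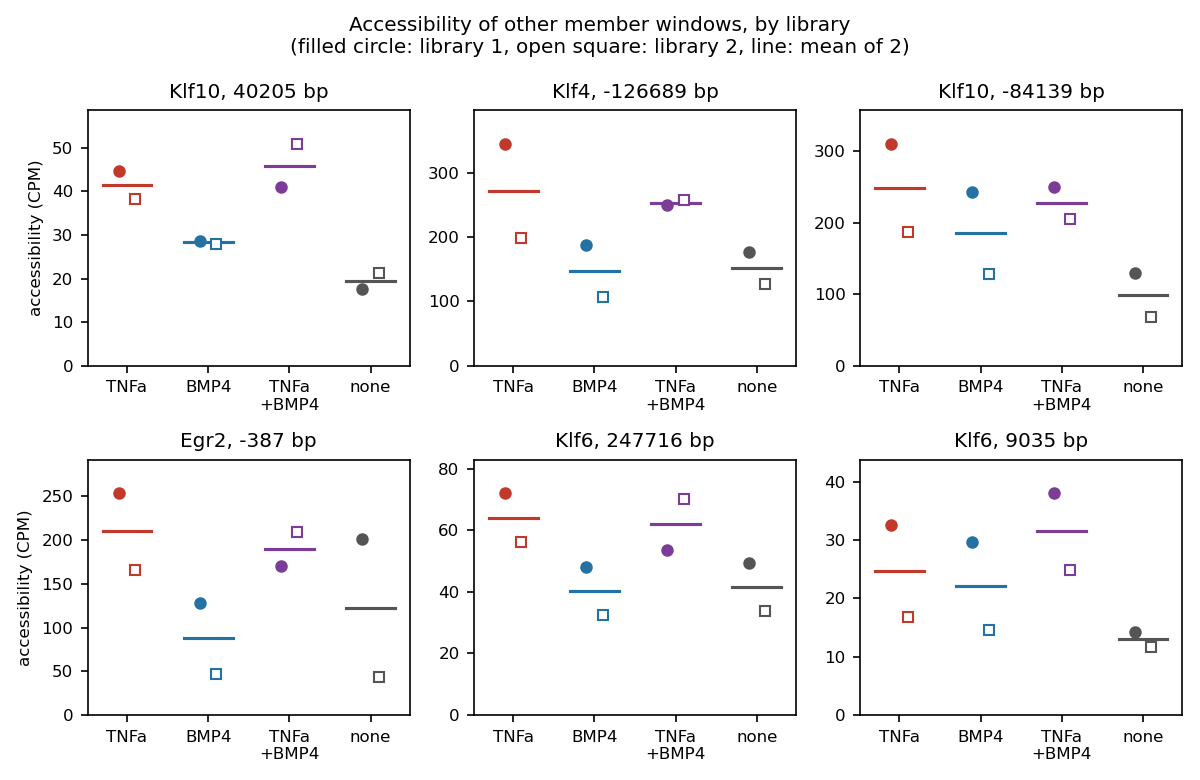
Accessibility (CPM) of 6 further member windows by group and library, with the mean of 2 as a line. These 6 were picked for the smallest limma p in the TNFa contrast, leaving aside the windows nearest to each start. At Klf10 40205, Klf4 -126689 and Klf6 247716 all 4 libraries with TNFa lie above the 4 without it, as in 1.82% of all tested windows.

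Klf4, a factor that restrains proliferation, had its strongest sites far upstream. At -118731 bp it held 439.9 ± 52.7 CPM with TNFa, 349 ± 5.57 with BMP4, 357 ± 39.2 with TNFa+BMP4 and 346 ± 8.92 in untreated cells (mean ± SD, n = 2 each). The window at -126689 bp (chr4:55659102-55659226) had 345 and 198 CPM with TNFa, 188 and 107 CPM with BMP4, 249.6 and 257 CPM with TNFa+BMP4, and 177 and 126 CPM in untreated cells. Every library with TNFa exceeded every library without it there. Log2 fold changes were 0.80 ± 0.52 for TNFa against none and 0.83 ± 0.52 for TNFa+BMP4 against BMP4, with a TNFa contrast of 0.81 ± 0.37, and 0.49 ± 0.44 without the 2 libraries that lie apart. A window beside it, at -126952 bp, was in the TNFa list only, with 152 and 262 tags.

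The Klf4 promoter window at -64 bp had 105 ± 25.7 CPM with TNFa, 133 ± 26.7 with BMP4, 109 ± 39.1 with TNFa+BMP4 and 96.7 ± 14.7 in untreated cells. Both BMP4 libraries (152 and 114 CPM) lay above both untreated ones (86.3 and 107 CPM), at 0.45 ± 0.53. At -1580 bp the untreated libraries (72.0 and 113 CPM) lay above all 4 libraries with TNFa, though untreated replicate 1 only just exceeded TNFa replicate 2 (69.3 CPM). TNFa+BMP4 against none was -1.01 ± 0.61, and -0.69 ± 0.68 without the 2 libraries that lie apart. The TNFa contrast there was -0.56 ± 0.43, and -0.13 ± 0.48 without them. At -396734 bp the first library exceeded the second in every group, with 68.7 and 13.1 CPM with TNFa, 74.4 and 16.5 CPM with BMP4, 59.2 and 20.4 CPM with TNFa+BMP4, and 37.7 and 7.33 CPM in untreated cells.

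Klf6, an injury-responsive factor, had its promoter window at -194 bp with overlapping values in all groups, at 107 ± 32.6 CPM with TNFa, 122 ± 44.9 with BMP4, 92.5 ± 10.7 with TNFa+BMP4 and 115 ± 42.3 in untreated cells. The window at 9035 bp, at the transcript's end, held 32.6 and 16.7 CPM with TNFa, 29.8 and 14.6 CPM with BMP4, 38.1 and 24.9 CPM with TNFa+BMP4, and 14.2 and 11.7 CPM in untreated cells. All treated libraries exceeded the untreated ones, though BMP4 replicate 2 (14.6 CPM) only just exceeded untreated replicate 1 (14.2 CPM). TNFa+BMP4 against none was 1.14 ± 0.57, on 14 to 27 tags per library. At 247716 bp the TNFa libraries had 72.1 and 56.1 CPM, the BMP4 libraries 48.1 and 32.4 CPM, the TNFa+BMP4 libraries 53.6 and 70.2 CPM and the untreated ones 49.4 and 33.7 CPM, a TNFa contrast of 0.61 ± 0.37, and 0.35 ± 0.46 without the 2 libraries that lie apart. The window at 168145 bp had the smallest member p between TNFa+BMP4 (25.4 and 11.3 CPM) and TNFa alone (10.3 and 5.97 CPM), at 0.95 ± 0.58. It also ranked first in the BMP4 average effect, at 0.72 ± 0.41, on 5 to 20 tags per library. At 265990 bp all BMP4 values (8.01 and 10.8 CPM) lay below the untreated ones (20.1 and 14.7 CPM), at -0.76 ± 0.51. At 10076 bp the TNFa contrast of 1.01 ± 0.64 was -0.03 ± 0.52 without the 2 libraries that lie apart, with 26.1 ± 11.6 CPM with TNFa, 20.6 ± 21 with BMP4, 35.3 ± 17.9 with TNFa+BMP4 and 14.7 ± 13.6 in untreated cells.

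Across the 44 windows, the median log2 fold change against none was 0.23 for TNFa, with 27 windows above 0, -0.02 for BMP4, with 22 above 0, and 0.30 for TNFa+BMP4, with 25 above 0. Over all tested windows the medians were 0.00 for TNFa and 0.01 for BMP4 and -0.01 for TNFa+BMP4. These comparisons share the untreated libraries. The log2 SD within groups had a median of 0.50 over the member windows and 0.65 over all tested windows. Of the 11 member windows within 1000 bp of a start, 9 lay above 0 for TNFa, with a median of 0.24, against 55.7% and 0.07 for all windows so near a start. The TNFa contrast had a member median of 0.23 with 28 windows above 0 (63.6%, against 49.9% of all tested windows). The BMP4 average effect had a member median of -0.05 with 19 above 0 (43.2%, against 50.8%).

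**Figure D4:**
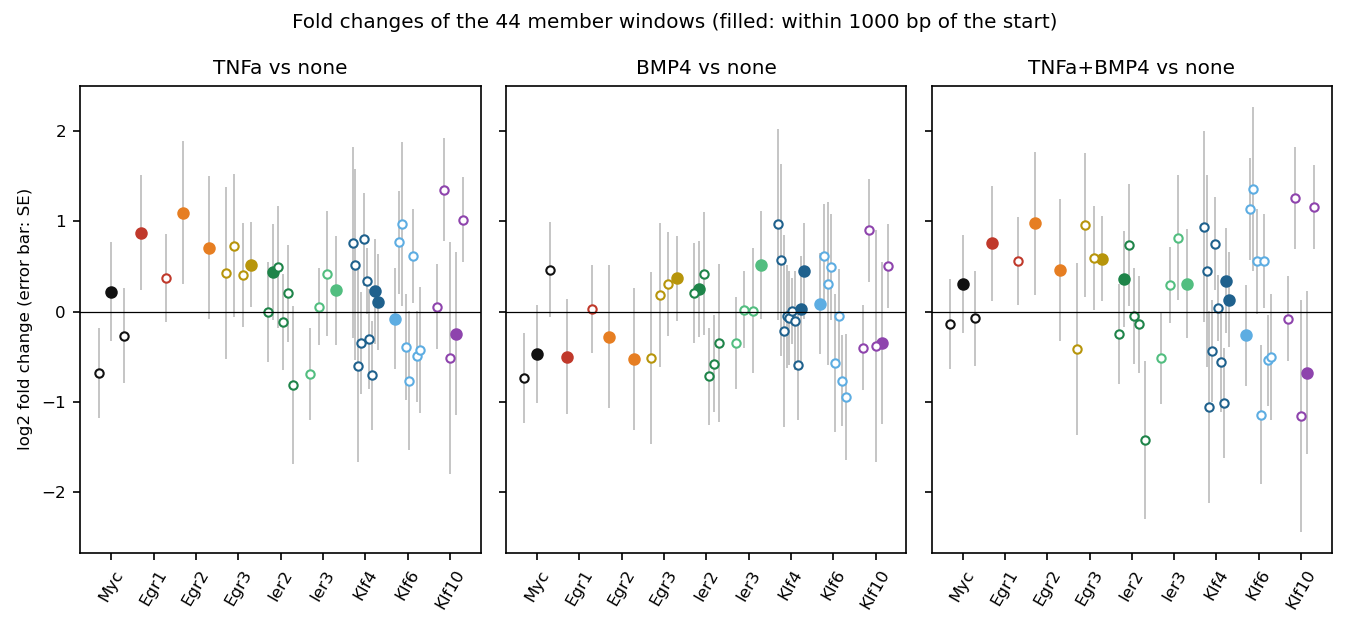
Log2 fold changes against untreated cells (error bars: SE) of the 44 member windows by gene, in order of position from left to right, with windows within 1000 bp of the start filled. The windows of Egr1, Egr2 and Egr3 lie above 0 for TNFa, while those of Klf4 and Klf6 fall on both sides, and no window passed the test.

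Some windows separated the libraries fully. In TNFa against none 10 member windows were higher (8.88% of all windows were) and 6 lower (10.5%) with no overlap, and in BMP4 against none 5 were higher (8.32%) and 6 lower (8.68%). In TNFa+BMP4 against none 12 were higher (16.8%) and 5 lower (16.5%), in TNFa+BMP4 against TNFa 3 higher (8.38%) and 4 lower (8.92%), and in TNFa+BMP4 against BMP4 10 higher (11.7%) and 1 lower (13.5%). For the TNFa contrast 3 were higher (1.82%) and 0 lower (2.62%), namely Klf10 40205, Klf4 -126689 and Klf6 247716. The BMP4 average effect had 0 higher (0.777%) and 0 lower (0.853%). By unadjusted limma p under 0.05, 1 member window was found in TNFa against none (1.05% of all windows), 1 in TNFa+BMP4 against none (2.48%) and 2 in the TNFa contrast (4.36%). No member window was found so in BMP4 against none (0.194%), TNFa+BMP4 against TNFa (0.257%), TNFa+BMP4 against BMP4 (1.6%), the BMP4 average effect (1.1%) or the interaction (0%).

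With the library number as a block in the fit, the TNFa contrast called 119 windows (0.825%), 66 higher and 53 lower, where the fit without it called 0. None of the 44 member windows was among them. The smallest adjusted p of a member with the block was 0.131, at both Egr1 -349 and Egr2 -387. By unadjusted p under 0.05 with the block, 8 member windows were higher (9.92% of all windows) and 2 lower (8.95%). Within the libraries of each number, 22 of the 44 member windows were above 0 in both and 11 below 0 in both, against 29.1% and 27.9% of all tested windows.

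**Figure D5:**
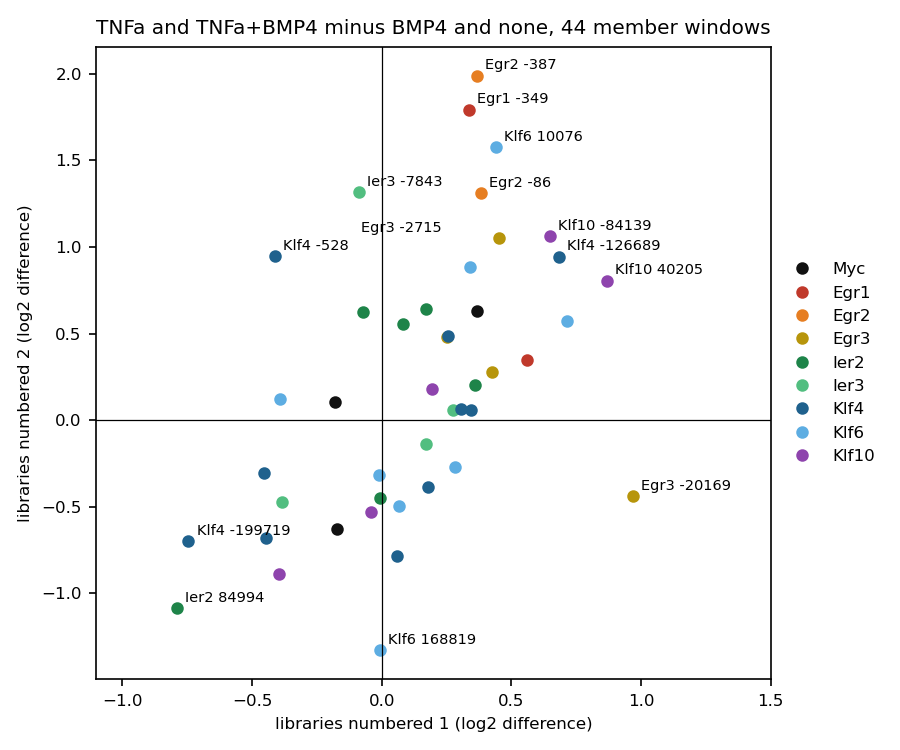
The TNFa contrast (log2 difference of TNFa and TNFa+BMP4 minus BMP4 and none) of the 44 member windows among libraries numbered 1 (x axis) and among those numbered 2 (y axis), coloured by gene. Egr1 -349 (0.34 and 1.79) and Egr2 -387 (0.37 and 1.99) lie high on the y axis only, whereas Klf10 40205 (0.87 and 0.81) is alike on both.

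Regions in some lists only were few per pattern. The TNFa list alone held 6 member regions (7.32%, against 4.32% of all regions), among them Klf4 -126952, Myc -150 and Klf6 330557 (47 and 123 tags), which lies next to a region at 330362 bp in the other 3 lists. The TNFa and TNFa+BMP4 lists alone shared 4 (4.88%, against 4.18%), namely Egr1 -656, the Ier2 pair and Klf6 304544. All lists but the untreated one shared 4 (4.88%, against 2.3%), with Egr1 -102, Ier2 108351, Klf6 27760 and Klf6 332318. An untreated window overlaps Klf6 27760 by less than the 63 bp required. The untreated list alone held 4 (4.88%, against 7.92%), among them Egr2 -1589 (27 and 50 tags), and the BMP4 list alone 2 (2.44%, against 5.83%), Egr1 -1237 and Egr2 -54281. Egr1 -1237 also overlaps, by less than 63 bp, a window at -1303 bp of the TNFa and untreated lists. The TNFa+BMP4 list alone held 0 member regions (against 6.26% of all regions). With windows within 500 bp joined into 64 member regions, the TNFa list alone held 3 (4.69%, against 2.26% of all joined regions), the TNFa and TNFa+BMP4 lists alone 1 (1.56%, against 2.92%), all lists but the untreated one 1 (1.56%, against 1.3%), the untreated list alone 3 (4.69%, against 6.91%) and the BMP4 list alone 1 (1.56%, against 3.97%). Klf4 -126952, Myc -150, Klf6 330557, Egr1 -656, Egr1 -102, Klf6 27760, Klf6 332318 and Egr1 -1237 then fell into regions held by all 4 lists. Ier2 107992 then fell into a region that the BMP4 list also held, and Ier2 23582 into one that the untreated list also held. Each list was made once from both libraries of a group, so these counts have no replicate.

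Of the related genes, 8 of 15 on a MYC network list (partners, antagonists and others such as Mycn, Mycl and Pvt1) had tested windows. These windows were 11 in all, with 5 above 0 in the TNFa contrast and a median of -0.06. EGR and SRF partners had 14 windows at 8 of 11 genes, 6 above 0, with a median of -0.17. Other KLF and SP factors had 39 windows at 12 of 19 genes, 13 above 0, with a median of -0.21, and in BMP4 against none 26 above 0 with a median of 0.22. Other immediate early genes had 86 windows at 32 of 36 genes, 38 above 0, with a median of -0.02. None of these windows passed the limma test in either direction in any comparison. With the block, 1 window of the last list passed in the TNFa contrast, near Plk2, a stress-responsive kinase, at 1.59 (adjusted p = 0.0407).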

How the data were processed

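Tags were mapped to mm10, and the submitters' processing notes name Trimmomatic 0.39, Bowtie2 2.5.1, Picard 2.25.1, deepTools 3.5.1 and HOMER 4.11. No source used here says whether reads were shifted for the transposase. Each of the 4 deposited peak lists holds 125 bp windows found in 1 group against sonicated DNA, with an adjusted p-value under 0.05 in every row and a log2 fold over background, as deposited by the authors. The per-library values are log2 values from a regularised log (rlog) made by the authors for each list alone, so lists are not on 1 scale, although the file headers call them tag counts. Tag counts were recovered by inverting that transformation: 99.32% to 99.997% of values came within 0.1 of a whole number, and the background counts were identical between lists for all 19515 windows with the same coordinates in 2 or more lists. With the shrinkage term moved slightly, 28.8% to 43.5% did.

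Windows were matched across lists by an overlap of at least 63 bp (14471 windows, 2914 with identical coordinates) and kept with at least 10 counts, scaled to the median library, in 2 libraries and 15 tags in all, which left 14416. Counts were scaled by TMM and log2(count + 2) was fitted with limma 3.58.1 (R 4.3.3) over all 8 libraries. The scripts, in Python 3.11.15, were tested on simulated data. No count model was run, since the deposited columns are not counts. Fold changes are on the log2(count + 2) scale, which understates low windows. Named windows are the tested window nearest to each start, the 3 member windows with the smallest p in each comparison, partial windows within 1000 bp and up to 3 with the most tags per pattern, and others were chosen after their values were seen. The genes and lists were chosen with earlier results of these data known. Same-numbered libraries deviated together in all 6 pairs of groups (correlations of 0.105 to 0.764), a pairing that comes from the data and not from the labels. The library number was fitted as a block in an alternative. Intervals over tags were not computed, since tags are not independent molecules.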

Additional observations from a re-analysis of the deposited data

How the results depend on the processing

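Over 22 alternatives, no named window passed an adjusted p of 0.05 (lowest 0.131), and the only comparison whose count of called windows changed was the TNFa contrast, with 119 windows under the replicate block, which changed no other call. The median log2 fold change of member windows moved with identical coordinates required, which left 5 of the 44, to 0.51 for TNFa, 0.36 for BMP4 and 0.62 for TNFa+BMP4 against none, 0.25 for TNFa+BMP4 against TNFa, 0.44 for the TNFa contrast and 0.22 for the BMP4 average effect. Scaling by total tags shifted the median of all windows by -0.15 in the TNFa contrast and moved the member median to 0.086 there, 0.075 for TNFa against none, 0.16 for TNFa+BMP4 against none and 0.11 against BMP4. The deposited rlog values minus background gave -0.25 for BMP4 against none and 0.24 for the interaction. Leaving out the second untreated and BMP4 libraries, chosen after seeing the data, gave 0.067 for TNFa+BMP4 against none and 0.089 against BMP4. Lone libraries are then assumed to vary like the others.

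Leaving out 1 library at a time, the medians ranged from 0.046 to 0.26 (TNFa against none, lowest without TNFa replicate 2), -0.05 to 0.09 (BMP4 against none), 0.067 to 0.30 (TNFa+BMP4 against none, lowest without untreated replicate 2), -0.07 to 0.02 (TNFa+BMP4 against TNFa), 0.089 to 0.30 (against BMP4, lowest without BMP4 replicate 2), 0.16 to 0.22 (TNFa contrast), -0.06 to 0.03 (BMP4 average effect) and -0.18 to 0.20 (interaction).

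Of 821 settings over 41 named results, 28 turned the direction, in 10 results, whose main values were all smaller than their SE. In the TNFa contrast, total tags gave -0.14 and rlog values -0.11 for Ier3 -82, rlog values 0.000528 for Klf4 -64, and leaving out the 2 libraries 0.16 for Klf6 -194 and 0.60 for Klf10 -164. In the BMP4 average effect, leaving them out gave -0.028 for Ier2 9. Leaving out 1 library at a time, the BMP4 average effect ranged from -0.43 to 0.049 for Myc 159, -0.72 to 0.10 for Egr1 -349, -0.89 to 0.12 for Egr2 -86, -0.11 to 0.27 for Ier2 9, -0.23 to 0.15 for Klf6 -194 and -0.89 to 0.11 for Klf10 -164, and the TNFa contrast from -0.24 to 0.27 for Ier3 -82, -0.29 to 0.080 for Klf4 -64 and -0.79 to 0.22 for Klf10 -164. The cause was not tested. Of the 82 regions, 48 were in all 4 lists, against 49 with any overlap, 36 with 100 bp, 44 of 64 with windows within 500 bp joined and 24 of 57 at an adjusted p against background under 0.001.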
